A study of Mus musculus with 6 samples.

Results

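Axon guidance ligands and receptors were read out of RNA-seq counts of the adult mouse optic nerve by their gene symbols. The symbols taken were those of the semaphorins, plexins, neuropilins, Eph receptors, ephrins, Slits, Robos, netrins 1, 3 and 4, the Unc5 receptors and Dcc. They gave 68 genes of the 24062 in the files, 34 ligands and 34 receptors. The rule names symbols and uses no measured value, but it was proposed with earlier results of these data known. The study compared nerves in which Nf1, the gene of the Ras regulator neurofibromin, was targeted in mature oligodendrocytes with control nerves. The 3 mutant libraries carry the genotype PlpCreERT2;Nf1flox/flox, in which a Cre recombinase that tamoxifen activates is driven by the promoter of the myelin gene Plp. Of the 3 controls, library 1 is labelled Nf1flox/flox and libraries 2 and 3 Nf1flox/+, and none of the 3 labels names a Cre. All groups thus share at least 1 floxed allele. Per the labels, tamoxifen was given to adults older than 2 months, and nerves were taken 1 month later. Libraries are numbered in accession order, which pairs nothing. No label says that each library came from its own animal, so the p-values cover only library-to-library spread, part of which may be technical.

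Guidance cues are proteins that attract or repel growing axons and migrating cells. Secreted semaphorins bind complexes of neuropilins and plexins, and most membrane-bound semaphorins bind plexins directly. Slits bind members of the Robo family, netrins bind Dcc and the Unc5 receptors, and ephrins bind Eph receptors on a neighbouring cell. Many of these genes stay active in the adult nervous system, where glia, vessel cells and neurons express different members. The optic nerve holds the axons of retinal ganglion cells with oligodendrocytes, astrocytes, microglia, vessels and a meningeal sheath, while the neuronal cell bodies lie in the retina.

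Total counts ranged from 13555756 to 23662698 per library, and the members took 0.318% to 0.373% of them. Nf1 itself stood at 394, 400.0 and 337 CPM (counts scaled to library size) in control libraries 1, 2 and 3 and at 304, 226 and 433 CPM in mutant libraries 1, 2 and 3, so the groups overlapped. Sums of cell type markers differed between libraries, and on some lists the groups overlapped. The summed CPM of 7 neuron markers was 446 to 867 in controls and 5584, 1593 and 3812 in mutant libraries 1, 2 and 3, and 4 of the 7 passed the test upward. That of 8 markers of striatal projection neurons was 119 to 144 in controls and 2034, 1359 and 1320.0 in the mutants, and 8 of 8 passed upward. That of 8 myelin markers was 24916 to 25810 in controls and 5205, 32908 and 4526 in the mutants, and 0 of 8 passed by edgeR. That of 5 fibroblast markers was 826 to 938 in controls and 197, 578 and 228 in the mutants, and 0 of 5 passed by edgeR. Yet in each of the 5 the mutant libraries lay below all controls, at an unadjusted p of 0.00736 to 0.0281. Of all genes tested, edgeR called 2.95% higher and 0.337% lower, so 0 calls on such a short list is no result about it. At an unadjusted p under 0.05, 8.02% were lower, and in 11.5% the mutant libraries lay below all controls. None of these markers had 0 counts in any library. The endothelial sum, of 4 markers, was 143 to 156 in controls and 41.1, 103 and 42.2 in the mutants, with 1 of the 4 lower by edgeR, the receptor gene Kdr (adjusted p 0.0418). The pericyte and smooth muscle sum, also of 4 markers, was 140 to 167 in controls and 62.7, 102 and 63.1 in the mutants. By edgeR 0 of 4 passed, but in each the mutant libraries lay below all controls, at an unadjusted p of 0.00365 to 0.0230. On the lists that follow the groups overlapped, with 0 calls by edgeR on each. The astrocyte sum was 2765 to 3084 in controls and 1497, 2982 and 1346 in the mutants. The oligodendrocyte precursor sum was 339 to 359 in controls and 132, 343 and 141 in the mutants. The microglia sum was 263 to 325 in controls and 199, 389 and 146 in the mutants. On all of these lists but the striatal one, mutant library 2 stood apart from mutant libraries 1 and 3, while its striatal sum lay between theirs. The inactive X transcript Xist was at 34 to 58 counts in controls 1 and 3 but at 30602 to 72727 elsewhere. In a bulk sample, more or fewer cells of a type and more or less RNA per cell cannot be told apart. The part of these shifts in the results on guidance genes was not tested.

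Of the 68 members, 67 had enough counts to be tested with edgeR. After Benjamini-Hochberg adjustment over the 16315 genes tested, 7 members rose in the mutant libraries at an adjusted p under 0.05, and 0 fell. The 7 are 10.4% of the tested members, where 2.95% of all genes tested rose and 0.337% fell. They are the receptor genes Epha6, Epha7, Robo2 and Dcc and the ligand genes Slit3, Sema3e and Sema5b. At an unadjusted p under 0.05 there were 12 members higher and 7 lower, where 11.2% and 8.02% of all genes tested were. DESeq2 called 12 members higher, the 7 with Epha5, Epha10, Plxna4, Unc5a and Efnb2, and 2 lower, Sema3b and Sema4c, where it called 6.45% and 2.72% of its genes. Limma-voom called 4 higher and 0 lower, where it called 2.56% and 0.539% of genes. It had 25 members at an unadjusted p under 0.05 (22.5% of all genes tested), and it did not call Epha6 (adjusted p 0.0555), Dcc (0.0566) and Sema3e (0.0786). Log2 fold changes of mutant over control (log2FC) are given ± SE. Their median over the 67 members was 0.016, beside -0.0017 over all genes tested. The 3 mutant libraries lay above all 3 controls in 13 members, 19.4% beside 12.5% of all genes tested, and below them in 7, 10.4% beside 11.5%. The call of the 7 depended on the libraries used: 0 of 68 members passed by edgeR when any 1 library other than mutant library 2 was left out. At an unadjusted p under 0.05 there were 14, 14 and 16 members without control libraries 1, 2 and 3 (12.5%, 11.9% and 14.5% of all genes tested), and 14 and 16 without mutant libraries 1 and 3 (11.7% and 14.9%). Without mutant library 2, 32 of 68 passed. With the log2 CPM of Xist as covariate, 0 of 67 passed by edgeR, with 11 at an unadjusted p under 0.05 (7.96% of all genes tested). The 7 stayed positive in that fit, with larger standard errors in the genes given here. Epha6 was at 3.67 ± 1.13 and Dcc at 1.56 ± 0.59, beside 3.23 ± 0.65 and 1.65 ± 0.36 without the covariate. Xist was low only in control libraries 1 and 3, so the covariate partly follows the group.

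**Figure D1:**
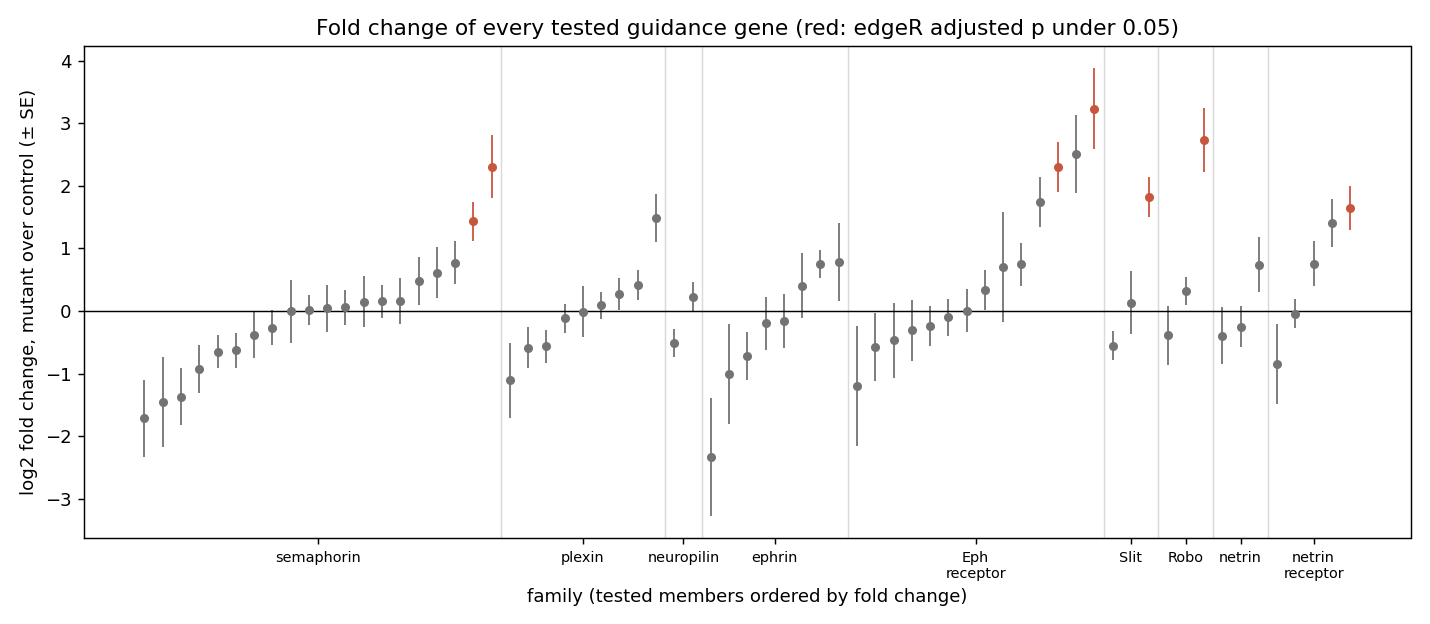
Log2 fold change (mutant over control) with its standard error for each of the 67 tested guidance genes, grouped by family and ordered by value within it; red points passed an edgeR adjusted p of 0.05. The 7 red points lie between 1.43 and 3.23, and no member below 0 is red.

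Eph receptors are the largest family of receptor tyrosine kinases. Of the 14, 2 rose, both of class A, where 2.95% of all genes tested rose. Epha7 (chromosome 4, 28813131 to 28967503, mm10, 18 exons) was at 10.7, 17.0 and 18.5 CPM in control libraries 1, 2 and 3 and at 113, 39.8 and 74.2 CPM in mutant libraries 1, 2 and 3. The lowest mutant library was above the highest control. The means were 15.4 ± 4.13 and 75.5 ± 36.4 CPM (SD, n = 3 each), a log2FC of 2.29 ± 0.40 (adjusted p 0.0209). Epha6 (chromosome 16, 59653483 to 60605531) was at 13.5, 5.76 and 6.31 CPM in controls and at 83.5, 20.6 and 135 CPM in mutants. Its mutant libraries 1 and 3 were several times mutant library 2, which was still above each control. The log2FC of Epha6 was 3.23 ± 0.65 (adjusted p 0.0344), the highest of all 67 tested members.

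No other Eph gene passed by edgeR, while DESeq2 also called Epha5 and Epha10. Epha4, a receptor that binds ephrins of both classes, was at 61.1, 88.4 and 72.8 CPM in controls and at 151, 64.9 and 158 CPM in mutants, so mutant library 2 lay among the controls (log2FC 0.75 ± 0.34, adjusted p 0.275). Ephb1, the B receptor with the highest level per exon length, was at 59.0, 77.1 and 54.3 CPM in controls and at 43.5, 80.1 and 37.2 CPM in mutants, with overlapping groups (log2FC -0.24 ± 0.32, adjusted p 0.724). Epha5 and Epha10 are named here after their values were seen. Epha5 was at 26.6, 16.2 and 20.7 CPM in controls and at 156, 24.1 and 181 CPM in mutants, and mutant library 2 fell within the control range. Its log2FC of 2.51 ± 0.62 had an adjusted p of 0.0678 by edgeR and 0.000313 by DESeq2, and Epha10 was at 1.74 (adjusted p 0.0513 by edgeR and 0.00117 by DESeq2). Exons of Epha10 overlap 1700125G02Rik, and counts made without strand cannot separate the 2. By class, the median log2FC was 0.75 over 9 EphA genes and -0.24 over 5 EphB genes. By edgeR 2 of the 9 EphA and 0 of the 5 EphB genes passed (2.95% of all genes tested rose and 0.337% fell). At an unadjusted p under 0.05 there were 4 EphA genes, all higher, and 0 EphB genes. Of all genes tested, 11.2% were higher and 8.02% lower at that threshold, so 0 of 5 is no result about the class.

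Ephrins, the ligands of these receptors, are tethered to the membrane, those of class A by a lipid anchor and those of class B by a transmembrane segment. None of the 8 passed by edgeR, with 1 higher and 1 lower at an unadjusted p under 0.05 (11.2% and 8.02% of all genes tested). Efnb2, known as a marker of arteries and also present in glia, was at 59.9, 67.0 and 79.7 CPM in controls and at 131, 102 and 114 CPM in mutants. All 3 mutant libraries were above all controls, mutant library 2 included, with a log2FC of 0.75 ± 0.22 (adjusted p 0.108 by edgeR and 0.0397 by DESeq2). Efnb3 had the highest level per exon length of all 68 members in controls, 59.0 ± 9.02 CPM per kb. It was at 220.4, 186 and 163 CPM in controls and at 76.5, 197 and 73.7 CPM in mutants, which puts mutant library 2 inside the control range (log2FC -0.71 ± 0.39, adjusted p 0.356). The A ephrins had control means of 1.04 to 4.13 CPM per kb.

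Slits are secreted repellents, and 1 of the 3 rose, beside 2.95% of all genes tested. Slit3 (chromosome 11, 35121456 to 35708507, 36 exons) was at 10.7, 11.8 and 10.9 CPM in controls and at 49.0, 23.0 and 45.9 CPM in mutants. The controls lay close together, and each mutant library was above them. Its means were 11.1 ± 0.580 and 39.3 ± 14.2 CPM, a log2FC of 1.82 ± 0.32 (adjusted p 0.0216). Slit2, the most abundant Slit per exon length, was at 151, 149 and 137 CPM in controls and at 109, 75.3 and 113 CPM in mutants. The mutant libraries of Slit2 all lay below the controls, but its log2FC of -0.55 ± 0.23 had an adjusted p of 0.239. Slit1 had overlapping groups and a log2FC of 0.13.

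Robos include the Slit receptors Robo1 and Robo2, and Robo2 rose. Robo2 (chromosome 16, 73892306 to 74410912, 28 exons) was at 14.7, 17.4 and 13.8 CPM in controls and at 162, 31.9 and 111 CPM in mutants. Mutant library 2 lay nearest the controls but above each of them. The log2FC was 2.73 ± 0.51 (adjusted p 0.0266). Robo1, its neighbour on chromosome 16, was at 104, 105 and 73.2 CPM in controls and at 122, 108 and 121 CPM in mutants, a log2FC of 0.31 ± 0.23 (adjusted p 0.487). Its groups did not overlap, although the gap was small beside the control spread. Robo4, a Robo of vessel endothelium, had a log2FC of -0.38 with overlapping groups. Robo3, which acts at the midline in development, was counted 9, 9 and 11 times in control libraries but 54, 1 and 18 times in mutant libraries, and was the 1 member left out of the test.

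Netrin genes had control means of 1.21 to 3.70 CPM per kb, beside a median of 3.71 over the 68 members. By edgeR 0 of 3 passed, with 0 at an unadjusted p under 0.05, where 11.2% of all genes tested were higher and 8.02% lower. Ntn1, the classical netrin, was at 24.4, 26.5 and 12.7 CPM in controls and at 20.8, 18.9 and 13.8 CPM in mutants, and the groups overlapped (log2FC -0.25 ± 0.33, adjusted p 0.728). Ntn4, a netrin of basement membranes, was at 2.43, 5.23 and 6.26 CPM in controls and at 5.77, 7.03 and 10.5 CPM in mutants, again with overlap (log2FC 0.74 ± 0.44, adjusted p 0.403). Ntn3, whose exons overlap Tbc1d24, had a log2FC of -0.39.

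Of the 5 netrin receptors, Dcc, which mediates attraction to netrin, rose, beside 2.95% of all genes tested. Dcc (chromosome 18, 71253632 to 72351069, 29 exons) was at 33.9, 33.3 and 28.7 CPM in controls and at 123, 48.7 and 128 CPM in mutants. Mutant libraries 1 and 3 were close to each other and mutant library 2 lay between them and the controls. The log2FC was 1.65 ± 0.36 (adjusted p 0.0433). Unc5 receptors mediate repulsion, and Unc5b and Unc5c had the highest levels per exon length among the netrin receptors. Unc5b was at 101, 118 and 104 CPM in controls and at 27.1, 134 and 18.2 CPM in mutants, so mutant library 2 was the highest of all 6 libraries and the other 2 mutants were the lowest. Its mean difference, a log2FC of -0.85 ± 0.64 (adjusted p 0.507), therefore describes no single mutant library. Unc5c was at 92.96, 120.3 and 123 CPM in controls and at 128, 94.4 and 104 CPM in mutants, a log2FC of -0.041 ± 0.23 (adjusted p 0.944) that turned positive without control library 2 (0.0224), control library 3 (0.0265) or mutant library 2 (0.0585). Unc5a and Unc5d had log2FCs of 1.41 and 0.76 and did not pass by edgeR, while DESeq2 called Unc5a (adjusted p 0.0121). Exons of Unc5a overlap Hk3.

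**Figure D2:**
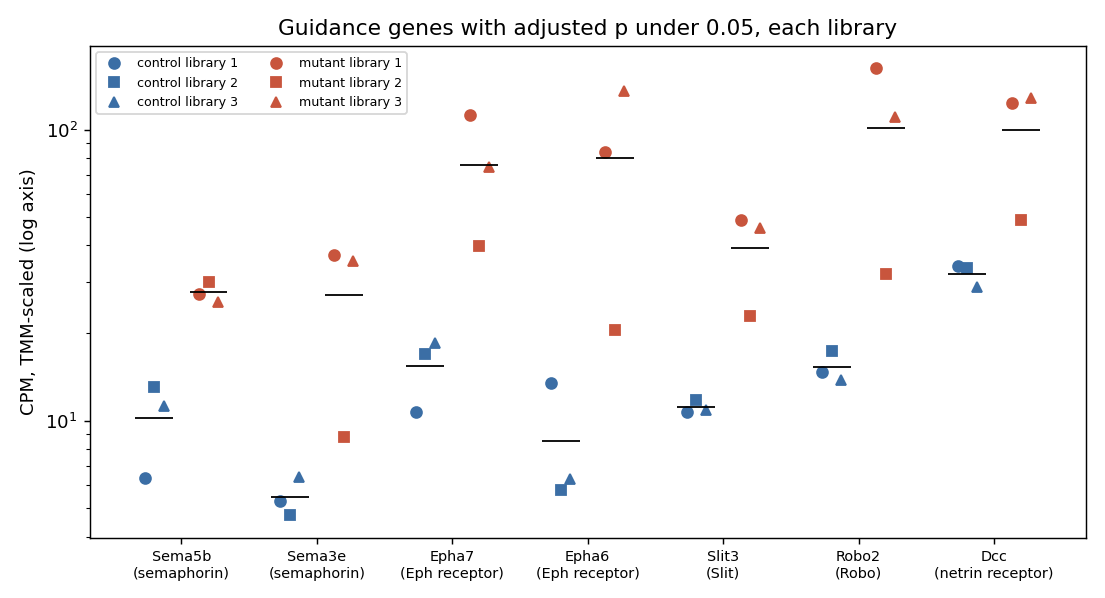
CPM on a log axis in each of the 6 libraries (blue, controls; red, mutants; marker shape, library number) for the 7 guidance genes that passed; black lines are group means. Mutant library 2 (red square) is the lowest mutant library in 6 of the 7 genes, and in Sema5b it is the highest.

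Semaphorins signal mostly as repellents, and 2 of the 20 rose, beside 2.95% of all genes tested. Sema3e, a secreted ligand that binds plexin D1 without a neuropilin, was at 5.30, 4.73 and 6.43 CPM in controls and at 37.0, 8.77 and 35.4 CPM in mutants. Mutant library 2 was 1.60 times the control mean, whereas mutant libraries 1 and 3 were 6.75 and 6.46 times. Sema3e lies on chromosome 5 (14025276 to 14256689), and its log2FC was 2.30 ± 0.50 (adjusted p 0.0444). Sema5b, a transmembrane ligand with thrombospondin repeats (chromosome 16, 35541362 to 35664258, 22 exons), was at 6.34, 13.1 and 11.2 CPM in controls and at 27.2, 29.9 and 25.7 CPM in mutants. Here the 3 mutant libraries were alike, at 2.67, 2.93 and 2.51 times the control mean. The means of Sema5b were 10.2 ± 3.48 and 27.6 ± 2.15 CPM, a log2FC of 1.43 ± 0.31 (adjusted p 0.0435, and 0.0517 when edgeR scales to total counts).

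No semaphorin fell by edgeR, with 4 of 20 lower at an unadjusted p under 0.05 (8.02% of all genes tested). The most abundant per exon length in controls, Sema6d, Sema4d and Sema5a, encode transmembrane ligands. Sema6d was at 314, 435 and 278 CPM in controls and at 165, 412 and 213 CPM in mutants, with mutant library 2 among the controls (log2FC -0.38 ± 0.36, adjusted p 0.616). Sema4d, a ligand of plexin B1 known from oligodendrocytes and lymphocytes, was at 108, 112 and 98.2 CPM in controls and at 52.0, 98.8 and 56.3 CPM in mutants, with mutant library 2 just inside the control range (log2FC -0.62 ± 0.28, adjusted p 0.268). Among the secreted class 3 genes, 1 of 7 rose, beside 2.95% of all genes tested, and the median log2FC was -0.0050. At an unadjusted p under 0.05 there were 1 higher and 2 lower (11.2% and 8.02% of all genes tested). The mutant libraries lay above all controls in 1 and below them in 3 (12.5% and 11.5% of all genes tested). Sema3b, named after its values were seen, was at 36.0, 54.3 and 59.7 CPM in controls and at 6.15, 33.0 and 6.77 CPM in mutants. Its groups did not overlap, and its log2FC of -1.71 ± 0.61 had an adjusted p of 0.175 by edgeR and 0.0324 by DESeq2.

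Plexins are the signalling receptors of semaphorins, and 0 of 9 passed by edgeR. There was 1 higher at an unadjusted p under 0.05, where 11.2% of all genes tested were. That 1 was Plxna4, a neuropilin partner in axons, at 60.2, 56.1 and 72.3 CPM in controls and at 282, 89.7 and 159 CPM in mutants. The groups did not overlap, and the log2FC was 1.49 ± 0.38 (adjusted p 0.0761 by edgeR and 0.00456 by DESeq2). Plxna2, the plexin with the highest mean level per exon length in the mutants, was at 170.0, 200.2 and 199.6 CPM in controls and at 317, 207 and 236 CPM in mutants (log2FC 0.42 ± 0.24, adjusted p 0.390). The groups of Plxna2 stood apart by a small step between control library 2 and mutant library 2. Plxnb3, a plexin of mature oligodendrocytes on chromosome X, was at 172, 176 and 157 CPM in controls and at 32.3, 171 and 31.5 CPM in mutants. Mutant library 2 thus lay within the control range, while mutant libraries 1 and 3 were far below it, and the log2FC of -1.10 ± 0.60 (adjusted p 0.357) averages over both. The 3 plexin B genes were at -0.56 to -1.10 and negative under each of 3 scalings, with 0 passing by edgeR. Of the 3, 0 had an unadjusted p under 0.05, where 8.02% of all genes tested were lower at that threshold. Plxnd1, the receptor of Sema3e, was at 24.9, 25.7 and 26.2 CPM in controls and at 32.6, 33.5 and 10.2 CPM in mutants, a log2FC of -0.0097 ± 0.41 (adjusted p 0.993).

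Neuropilins are the coreceptors of secreted semaphorins and of vascular endothelial growth factor, and neither passed by edgeR. Nrp1 was at 83.3, 70.6 and 65.8 CPM in controls and at 44.9, 49.3 and 60.4 CPM in mutants. All mutant libraries were below all controls, with a log2FC of -0.51 ± 0.22 (unadjusted p 0.0496, adjusted p 0.259). Nrp2 was at 114, 142 and 137 CPM in controls and at 151, 186 and 123 CPM in mutants and overlapped (log2FC 0.23 ± 0.24, adjusted p 0.649).

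**Figure D3:**
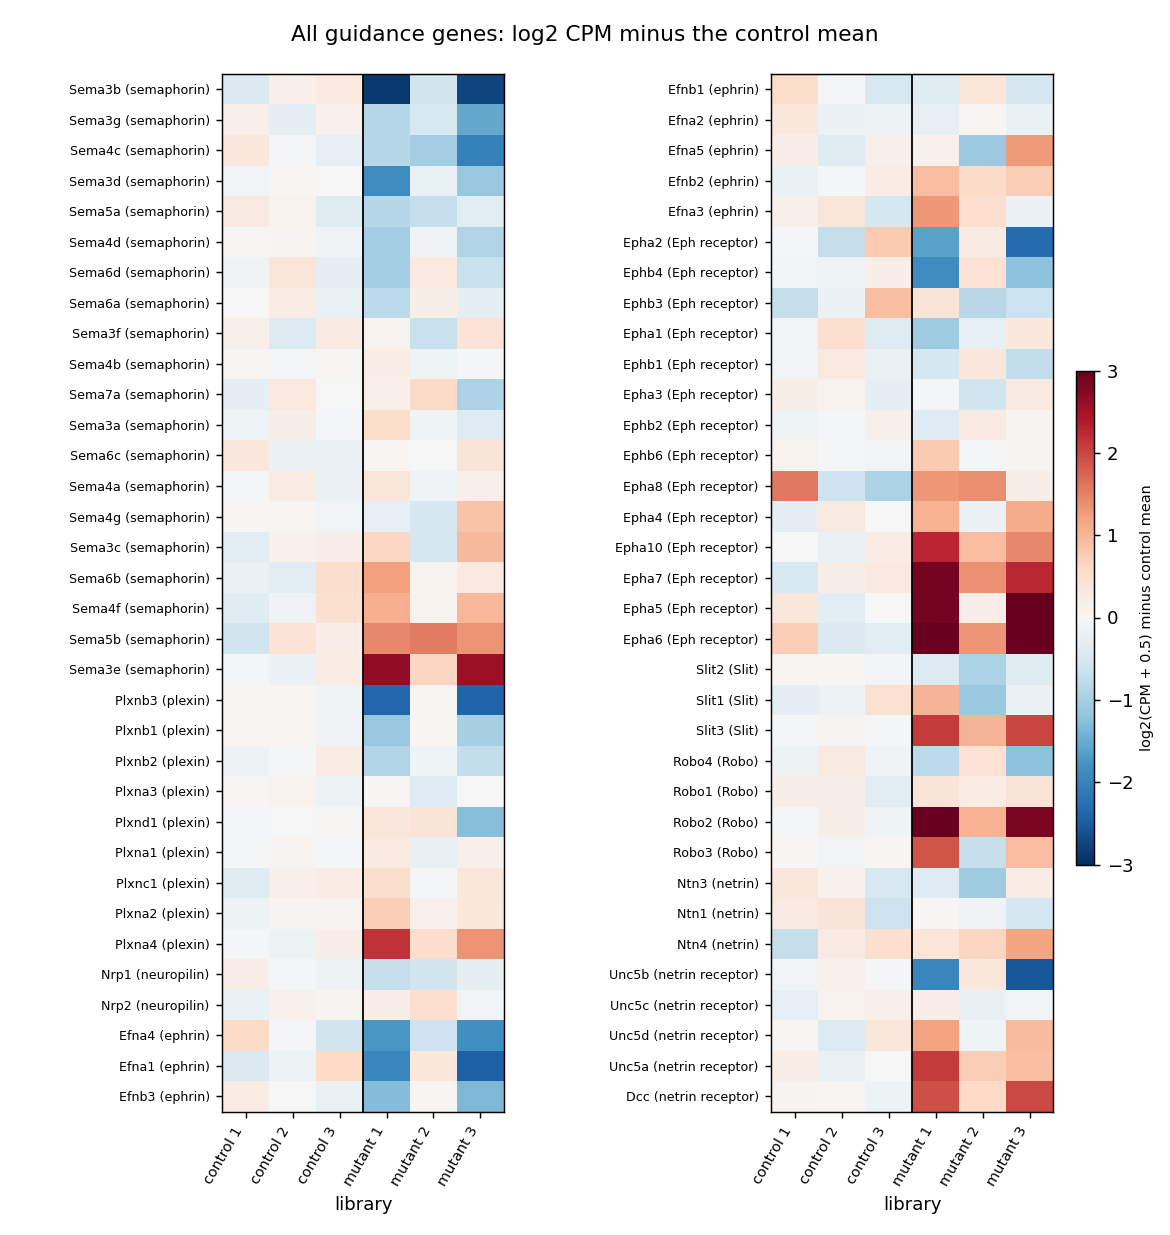
Log2(CPM + 0.5) minus the control mean for all 68 members in each of the 6 libraries, ordered by family and by fold change; colours saturate beyond 3 log2 units in either direction. Mutant libraries 1 and 3 carry most of the strong colours, and mutant library 2 is paler in most rows.

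The mutant libraries differed among themselves in how far they lay from the controls. In mutant libraries 1, 2 and 3, 30, 24 and 26 of the 67 tested members were above the control range and 25, 19 and 25 below it. Over all genes tested, 36.3%, 29.3% and 36.6% were above and 37.4%, 29.5% and 39.3% below. The mean absolute deviation of the members from the control mean was 1.09, 0.48 and 1.02 log2 units, beside 0.77, 0.43 and 0.77 over all genes tested. By this mean, mutant library 2 was the nearest to the controls on both sets.

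Without mutant library 2, 17 of 68 members passed upward and 15 downward, 25.0% and 22.1%, where 13.2% and 13.8% of all genes tested did. The 17 held 5 Eph receptors, 4 semaphorins, 3 netrin receptors, 2 Robos and 1 member each of the Slits, ephrins and plexins. Epha6 was at 3.69, Robo2 at 3.16, Slit3 at 2.10 and Sema3e at 2.73. The 15 held 5 semaphorins, 3 ephrins, 3 plexins, 2 Eph receptors, 1 Robo and 1 netrin receptor. The largest falls were those of Efna4 at -4.10, Epha2 at -3.05, Sema3b at -2.95 and Efna1 at -2.69. Plxnb3 was at -2.39, Unc5b at -2.24 and Efnb3 at -1.33. Efna4 had only 2 counts in mutant library 1 and 1 in mutant library 3. These 2 libraries were also the ones with the higher neuron and lower myelin marker sums given above. This fit is an alternative with 2 mutant libraries, and the part of those markers in it was not tested.

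The balance of ligand and receptor counts differed between the libraries. The ligands added up to 1648, 1794 and 1493 CPM in control libraries 1, 2 and 3 and to 1228, 1578 and 1319 CPM in mutant libraries 1, 2 and 3, and the groups overlapped. The receptors added up to 1703, 1856 and 1775 CPM in controls and to 2547, 1956 and 2206 CPM in mutants, and the groups did not overlap. The ratio of receptor to ligand CPM was 1.03, 1.03 and 1.19 in controls and 2.07, 1.24 and 1.67 in mutants. As plain shares of total counts it was the ligands that did not overlap, at 0.156% to 0.183% in controls and 0.120% to 0.150% in mutants, and the receptors that did, at 0.161% to 0.189% and 0.186% to 0.248%, while the ratio of receptors to ligands does not depend on scaling. Plexins were the largest part of the receptor sum in each library. The Eph receptors had a sum of 261 ± 15.7 CPM in controls and 536 ± 193 CPM in mutants, and the netrin receptors 293 ± 18.2 and 350.1 ± 40.9 CPM. Semaphorins made up most of the ligand sum, with a sum of 1142 ± 141 CPM in controls that was 915 ± 179 CPM in mutants.

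**Figure D4:**
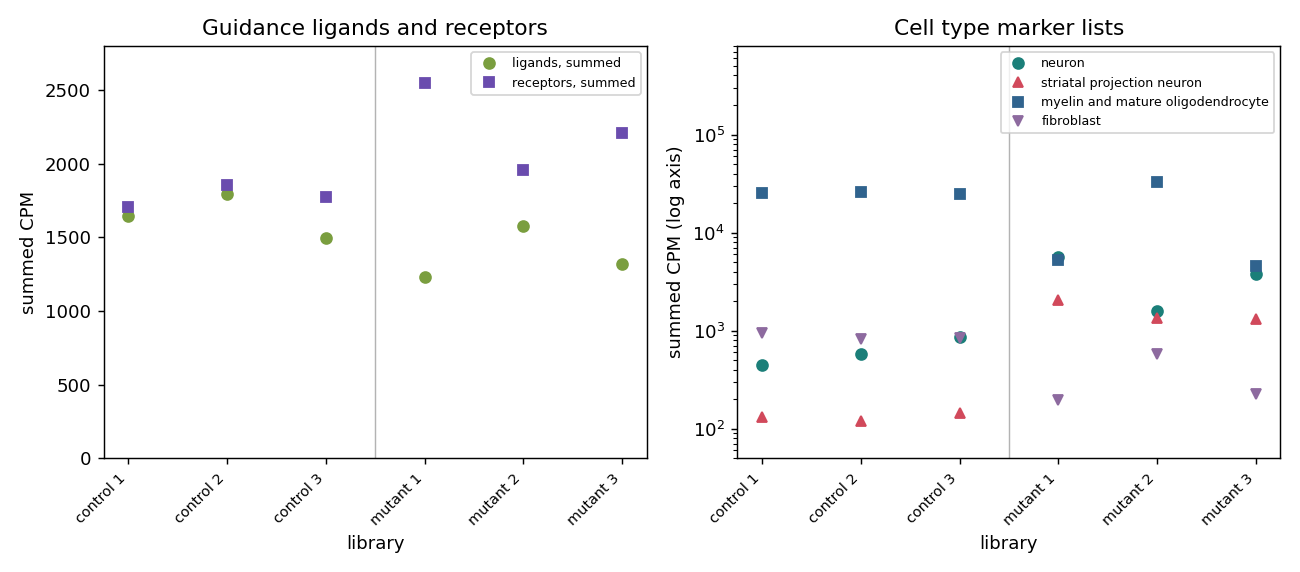
Left, summed CPM of the 34 guidance ligands and of the 34 receptors in each library; right, summed CPM of 4 cell type marker lists on a log axis. The receptor sum is 1703 to 1856 in controls and 1956 to 2547 in mutants, and mutant library 2 has the lowest neuron and the highest myelin sum of the mutants.

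Levels per exon length place the members within the control nerve. The highest control means were 59.0 ± 9.02 CPM per kb for Efnb3, 47.5 ± 11.5 for Sema6d, 27.9 ± 1.59 for Plxnb3, 23.4 ± 1.61 for Sema4d, 21.4 ± 4.47 for Sema5a and 19.6 ± 1.35 for Plxnb1. In this order the libraries of Efnb3 and Sema6d overlapped, as did those of Sema5a with Sema4d and with Plxnb1, whereas Plxnb3 stood apart from both neighbours. The 7 genes that rose were in the lower ranks, from place 40 (Dcc, 3.10 ± 0.277 CPM per kb) to place 64 (Sema3e, 0.80 ± 0.126 CPM per kb) of 68. In the mutant means, Epha6 was at place 6, Robo2 at 17, Dcc at 24, Epha7 at 25, Slit3 at 28, Sema5b at 33 and Sema3e at 41. These places rest on means that can vary widely between libraries, as for Epha6 at 18.9 ± 13.6 CPM per kb. At the low end, Sema3g had 0.376 ± 0.0822 and Robo3 0.0900 ± 0.00957 CPM per kb in controls.

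**Figure D5:**
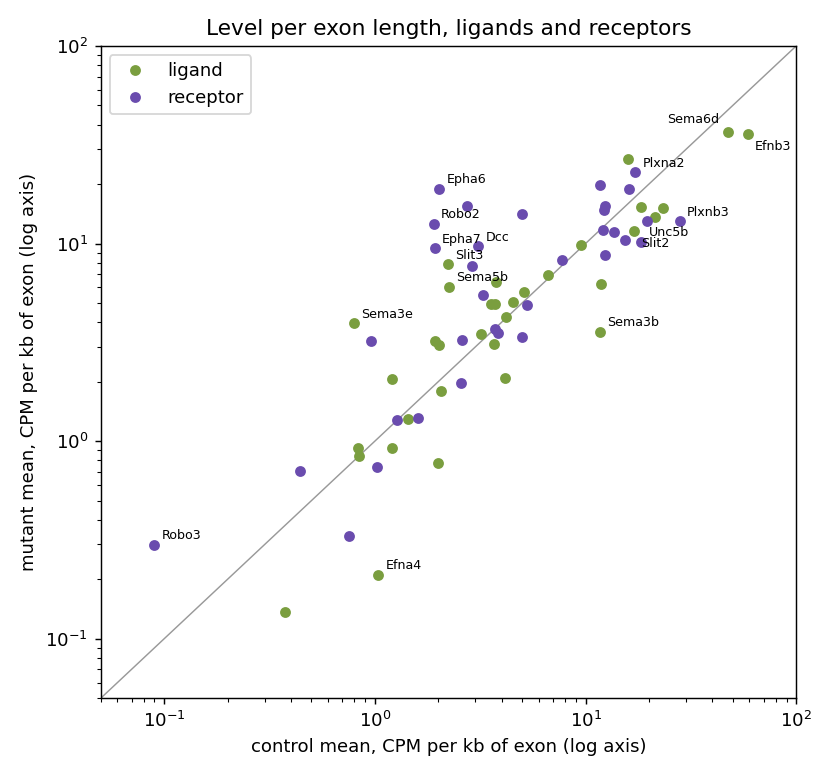
Mean CPM per kb of exon in mutants against controls, both on log axes, for the 68 members (green, ligands; purple, receptors); the line marks equal levels. Epha6, Robo2 and Epha7 lie far above the line from control levels near 2.02, 1.90 and 1.93 CPM per kb, and Sema3b and Plxnb3 lie below it.

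Of 55 other guidance genes, a list of further cues, adhesion coreceptors and intracellular mediators, 2 rose and 0 fell by edgeR, which is 3.64% beside 2.95% of all genes tested and thus near the background, with 7 higher and 4 lower at an unadjusted p under 0.05 (11.2% and 8.02% of all genes tested) and a median log2FC of 0.17. Ngef, which encodes ephexin, a protein that binds EphA receptors, was at 13.4, 13.9 and 17.5 CPM in controls and at 106, 64.6 and 52.3 CPM in mutants (log2FC 2.32 ± 0.31, adjusted p 0.00740). Ntng1, a membrane-anchored netrin relative, was at 6.74, 9.66 and 10.4 CPM in controls and at 55.4, 20.4 and 63.1 CPM in mutants (log2FC 2.37 ± 0.42, adjusted p 0.0232). Neither gene's groups overlapped. Flrt3, an adhesion protein that binds Unc5 receptors, and Crmp1, a mediator of semaphorin signals, had log2FCs of 1.27 and 1.59 and did not pass (adjusted p 0.0973 and 0.107).

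The promoters of the genes that rose can be set beside these values. RefSeq (build GRCm38.p6, which is mm10) lists a window from 250 bases before to 50 after a start site for 58 of the 68 symbols, and for 44 of them the start is that of the deposited annotation. Shown are Epha7, Slit3 and Sema5b, the genes with such an entry whose call also passed by limma-voom. Capitals mark GC boxes, searched as GGGCGG on both strands with overlapping matches counted.
Epha7 (chr4:28812881-28813180, plus strand): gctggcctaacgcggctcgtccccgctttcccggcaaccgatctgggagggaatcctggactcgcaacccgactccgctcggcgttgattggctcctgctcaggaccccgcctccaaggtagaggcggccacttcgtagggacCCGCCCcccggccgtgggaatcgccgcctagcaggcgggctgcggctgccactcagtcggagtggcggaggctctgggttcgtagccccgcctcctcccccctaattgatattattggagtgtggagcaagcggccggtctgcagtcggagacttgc
Slit3 (chr11:35121206-35121505, plus strand): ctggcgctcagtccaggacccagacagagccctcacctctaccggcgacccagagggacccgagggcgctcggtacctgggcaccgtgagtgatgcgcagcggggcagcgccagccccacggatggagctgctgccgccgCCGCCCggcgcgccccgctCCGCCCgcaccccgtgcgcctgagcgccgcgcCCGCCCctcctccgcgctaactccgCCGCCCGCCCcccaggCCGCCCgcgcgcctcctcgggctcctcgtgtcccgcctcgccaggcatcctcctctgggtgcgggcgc
Sema5b (chr16:35541112-35541411, plus strand): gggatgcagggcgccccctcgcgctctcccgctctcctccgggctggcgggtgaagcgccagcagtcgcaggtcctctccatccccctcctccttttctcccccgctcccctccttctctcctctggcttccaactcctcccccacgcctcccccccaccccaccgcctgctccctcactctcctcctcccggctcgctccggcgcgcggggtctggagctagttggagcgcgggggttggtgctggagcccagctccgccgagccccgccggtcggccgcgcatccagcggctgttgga
Their GC content was 67.0%, 78.3% and 73.0%, beside a median of 65.0% over the 44 members and 52.7% over the 32851 RefSeq windows. They held 1, 6 and 0 GC boxes. Epha6 and Sema3e also rose and have such an entry, but limma-voom did not call them. Their GC content was lower, at 60.3% and 50.7%, and they held 2 GC boxes each. A GC box was present in 36 of the 44 members, 81.8%, beside 35.7% of all windows. All windows include many genes of other kinds. Unlike those of the members, they were not limited to deposited starts or to 1 window per gene, so the sets are unlike. TATAAA, searched on both strands, was present in 0 of the 3 promoters shown, in 2.27% of the members and in 13.6% of all windows. The matches describe letters only.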

How the data were processed

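RNA-seq counts of 6 optic nerve libraries, 3 control and 3 mutant, were analysed. Per the labels' protocols, total RNA went through NuGEN's Ovation v2 amplification and Nextera XT library preparation. The authors deposited unnormalized fragment counts for each gene. Per the file headers, they ran featureCounts 1.4.6-p4 in paired mode on UCSC mm10 exons, ignoring strand. The submitters' processing notes also name TopHat. Counting without strand leaves Epha1, Epha10, Ntn3, Unc5a and Nrp1, whose exons overlap another gene, uncertain to that extent. In a chi-square check, each of the 15 library pairs differed beyond sampling noise (at least 45.6 per degree of freedom).

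Counts were tested with edgeR 4.0.16 (R 4.3.3), quasi-likelihood F test, TMM scaling, filterByExpr with a minimum count of 10 and no covariate, over all 16315 genes that passed. The standard error (SE) was obtained from the log2 fold change and F. CPM use TMM-scaled library sizes, and CPM per kb divide by the deposited exon length. Alternatives were DESeq2 1.42.0, limma-voom 3.58.1, 2 other scalings, no filter, the log2 CPM of Xist as covariate, and leaving out each library. The fits were tested on simulated data. The members, the lists of other guidance genes and cell type markers and the rule for named genes were chosen with earlier results of these data known. The rule named every member with adjusted p under 0.05 and, in each family, the 2 with the highest CPM per kb and the 1 with the smallest p, and up to 4 other guidance genes by smallest p. A gene at fewer than 10 counts in every library was to be named as such, and 0 members were. Since PCR duplicates carry no molecular identifiers, depth speaks to counting error alone.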

Additional observations from a re-analysis of the deposited data

How the results depend on the processing

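The 7 guidance genes called became 8 with DESeq2 size factors in edgeR, 7 with total counts (6 of them shared, Sema5b lost) and 10 without the filter on low counts. The count was 14 by DESeq2 (12 higher and 2 lower), 4 by limma-voom, and 0 by edgeR with Xist as covariate, where 11 had an unadjusted p under 0.05. Leaving out 1 library each gave 0 to 32, and 32 only without mutant library 2. The cause of these changes was not tested. The 537 genes called over the whole table became 870 without the filter, 1656 by DESeq2, 0 by edgeR with Xist as covariate (1299 at an unadjusted p under 0.05) and 51 to 4551 with 1 library left out. The median log2 fold change of the members, 0.016, was -0.037 to 0.103 with 1 library left out, 0.103 without mutant library 2, -0.0058 with total counts and -0.040 by limma-voom. The log2 fold change of Unc5c, -0.041, ranged from -0.172 to 0.0585 with 1 library left out and was 0.0224 and 0.0265 without control libraries 2 and 3. The other 23 named members kept their sign in each of the 12 alternatives. No paired analysis was possible because the labels give no replicate numbers and pair no libraries. Precision is limited by 3 libraries per group.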
